A study of Homo sapiens with 24 samples.

Results

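HaCaT cells are human skin keratinocytes that grow without limit in culture but form no tumours. The comparison described here sets 3 libraries of HaCaT clones carrying hsa-miR-186 and kept without arsenic for 29 weeks against 3 libraries of the same construct and dose taken at week 12, 6 of the 24 libraries of the series, chosen by construct, dose and week. Per the labels, 3 clonal lines were transduced with hsa-miR-186 and 3 with an empty vector, with inorganic arsenic (iAs) at 0 or 100 nM in the medium, which gives 8 groups of 3 libraries with weeks 12 and 29. Each group is thus a set of clones, and the labels do not say which clone a replicate number stands for. Unless a fit on fewer libraries is named, a p-value rests on the spread between libraries within groups, pooled over all 24. All libraries were sequenced together in one run. When the cells of each week were grown and extracted is not given, so weeks in culture and the time of harvest cannot be told apart.

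The other week 29 against week 12 pairs, which share no library with this one, were vector clones at 0 nM, miR-186 clones at 100 nM and vector clones at 100 nM. Levels are FPKM (fragments scaled by transcript length and library size), and changes are log2 differences ± standard error, week 29 minus week 12, on log2(FPKM + 0.5), a scale that understates the change of genes with low levels. A gene passed the test at an adjusted p under 0.05 in limma, adjusted by Benjamini-Hochberg over the 14228 genes tested.

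Several of the genes that changed are immediate-early genes. They encode transcription factors such as FOS, EGR and NR4A proteins and are switched on within minutes of growth factor, serum or stress signals, without new protein synthesis. Their messages are short-lived, partly because ZFP36 proteins bind AU-rich elements in them and recruit the decay machinery. Other genes induced by the same signals encode phosphatases and inhibitors (DUSP, SPRY, SMAD7, NFKBIA) that switch the MAP kinase, TGF-beta and NF-kB pathways off again.

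Signal-dependent start sites often carry a cAMP response element, built on TGACG, or a CArG box, the core of the serum response element, and some a TATA box. The stretches before the start of FOSB, EGR1, DUSP1 and JUNB, all lower at week 29, are shown to let a reader see these elements, from RefSeq on GRCh38.p14 and read 5′ to 3′ on the strand of the gene. Capitals mark TGACG or its reverse complement CGTCA, the CArG box, and TATAAA.
FOSB (chr19:45467796-45467995, plus strand): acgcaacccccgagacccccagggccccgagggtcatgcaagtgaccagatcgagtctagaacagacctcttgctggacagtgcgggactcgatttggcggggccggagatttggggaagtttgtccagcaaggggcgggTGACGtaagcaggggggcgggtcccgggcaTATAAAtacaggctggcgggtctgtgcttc
EGR1 (chr5:138465279-138465478, plus strand): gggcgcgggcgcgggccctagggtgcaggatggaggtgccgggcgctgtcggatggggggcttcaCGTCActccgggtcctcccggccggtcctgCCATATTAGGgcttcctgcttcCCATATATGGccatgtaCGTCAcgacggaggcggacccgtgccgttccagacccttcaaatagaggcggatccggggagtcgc
DUSP1 (chr5:172771196-172771395, minus strand): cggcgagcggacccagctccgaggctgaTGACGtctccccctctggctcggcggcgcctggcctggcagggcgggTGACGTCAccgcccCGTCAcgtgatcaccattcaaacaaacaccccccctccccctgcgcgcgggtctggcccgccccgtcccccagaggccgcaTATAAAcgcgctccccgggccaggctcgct
JUNB (chr19:12791286-12791485, plus strand): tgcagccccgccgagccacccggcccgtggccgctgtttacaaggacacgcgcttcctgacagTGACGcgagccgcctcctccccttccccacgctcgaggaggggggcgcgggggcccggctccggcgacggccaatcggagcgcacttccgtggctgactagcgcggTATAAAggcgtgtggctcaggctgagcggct

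Over the 250 bases before the start, on both strands, TGACG was found in 11 of the 16 early genes with a promoter entry (68.8%), in 36.3% of the 10328 tested genes with one and in 24.9% of all 27305 genes in the table. The full element TGACGTCA, which contains TGACG, was found in 1 of the 16 (6.25%) and in 3.52% of tested genes. A CArG box was found in 2 of the 16 (12.5%) and in 1.45% of tested genes, and TATAAA in 4 of the 16 (25.0%) and in 8.19% of tested genes. Among genes that passed the test, TATAAA was found in 30 of the 128 lower at week 29 with an entry (23.4%) and in 17 of the 168 higher (10.1%), while TGACG was found in 43.8% of the lower and 41.1% of the higher genes. NR4A1, the gene with the greatest fall of the early genes, had none of these letters in its window. A match describes the letters and not a bound site.

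In all, 412 of the 14228 genes passed (2.9%), of which 223 were higher at week 29 (1.57%) and 189 lower (1.33%). At an unadjusted p under 0.05 there were 3505 genes (24.6%), and the 3 and 3 libraries did not overlap for 2358 genes higher (16.6%) and 2017 lower (14.2%). The median change of all genes tested was 0.06. The falls were larger than the rises, with medians of −1.37 over the falls and 0.75 over the rises that passed. Calls depended on most libraries. Without week 29 replicate 1 or 3 there were 47 and 72 or 33 and 65 genes higher and lower, and without week 12 replicate 1 or 2 there were 11 and 49 or 30 and 73. Leaving out week 12 replicate 3 gave 547 higher and 369 lower, and leaving out week 29 replicate 2 gave 176 and 162.

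The sums of FPKM ran from 717557 to 905683 over the 6 libraries, 13898 to 14264 genes reached 0.5 FPKM, and read counts were not used here. Week 12 replicate 3 stood nearest to week 29: correlations across genes, which are not independent replicates, were 0.964 to 0.988 within a week and 0.932 to 0.975 between weeks. Its slope of log2 level over gene GC content was −0.0905 for each 10 percentage points, against −0.192, −0.293 and −0.332 in week 29 replicates 1, 2 and 3 and 0.0816 and 0.143 in week 12 replicates 1 and 2. The median GC content was 43.5% for the rises, 54.0% for the falls and 47.9% for all genes tested. With GC content corrected in each library, 144 genes were higher and 188 lower. Of the 412 genes 224 passed both ways, which were 78 of the 223 rises and 146 of the 189 falls. With the libraries scaled by median ratio or by upper quartile, 125 and 190 or 102 and 191 were higher and lower.

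All 12 keratinocyte markers were over 1 FPKM and had a summed level of 1959 to 2517 FPKM at week 29 and 2648 to 5165 FPKM at week 12. None of the 12 passed, with 4 positive and 8 negative changes and a median of −0.11. Much of the sum came from KRT15, KRT5 and KRT14, with up to 1794, 1142 and 1075 FPKM in the 6 libraries. Fewer markers of other cells were measured: 3 of 9 for fibroblasts (4.15 to 95.6 FPKM in sum at week 29 and 4.07 to 41.7 FPKM at week 12), 2 of 7 for melanocytes (6.22 to 11.3 FPKM and 7.36 to 8.28 FPKM) and 2 of 9 for endothelial and immune cells (5.19 to 22.7 FPKM and 7.36 to 22 FPKM). DCN, the proteoglycan decorin, stood at 0.880, 78.0 and 0.942 FPKM at week 29 and 12.9, 27.6 and 0.498 FPKM at week 12. The highest DCN level was thus in week 29 replicate 2, the library with the highest early genes of its week, and the part of other cells in the results was not tested.

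Libraries of polyadenylated RNA do not measure a mature microRNA, and MIR186 was listed at 0 FPKM in all 24, so the construct could not be checked from these levels. Its host gene ZRANB2, a splicing factor with zinc fingers, had 32.9, 65.3 and 37.7 FPKM at week 29, against 31.6, 33.1 and 31.3 FPKM at week 12 (0.43 ± 0.22, adjusted p = 0.223 in limma). The ranges overlapped, and week 29 replicate 2 was the highest. None of 13 tested genes published as miR-186 targets passed in either direction, with a median of 0.07.

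Transcription factors of the early response were the list with the highest share of falls. This list, like the others, was chosen with earlier results of these data known. Of 20 tested transcription factor genes of the AP-1, EGR, NR4A and KLF families and related early genes, 16 were lower at week 29 (80%, beside 1.33% of all genes) and none higher, and all 20 had a negative change, with a median of −1.52. Their summed level was 637, 1483 and 688 FPKM at week 29 replicates 1, 2 and 3, and 2602, 2740 and 2339 FPKM at week 12. All week 29 libraries lay below all week 12 libraries, and week 29 replicate 2 lay closest to them. In bulk RNA, fewer cells expressing such a gene and less of its RNA in each cell cannot be told apart.

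**Figure D1:**
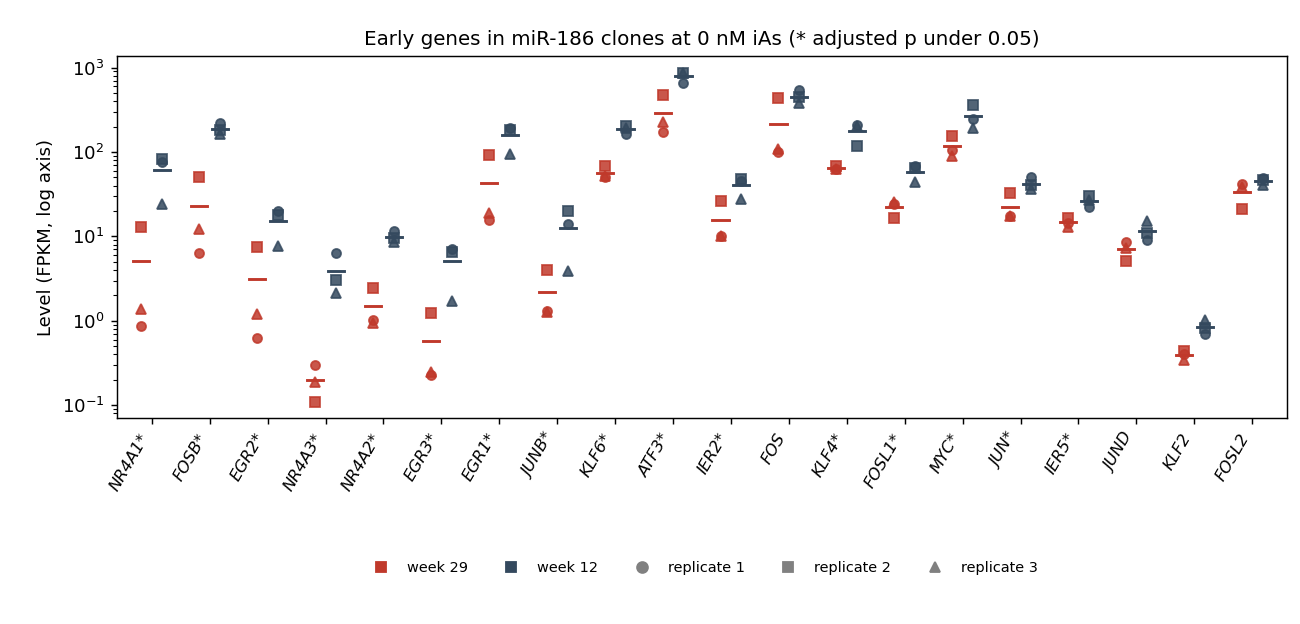
Levels of 20 early genes (FPKM, log axis) in the 3 week 29 libraries (red) and the 3 week 12 libraries (dark) of miR-186 clones at 0 nM, with replicates by symbol and a bar at the mean. An asterisk marks an adjusted p under 0.05 (16 genes), and replicate 2 (square) is the highest week 29 library for NR4A1, FOSB, EGR1 and FOS.

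NR4A1, an orphan nuclear receptor, had 0.869, 13.0 and 1.37 FPKM at week 29 against 75.5, 81.6 and 24.4 FPKM at week 12. The weeks did not overlap, and the mean on the log scale was 16.5-fold lower at week 29 (−4.04 ± 0.75, adjusted p = 0.00671 in limma). Its locus overlaps an antisense gene, and without a stated strand setting their reads cannot be told apart. Its paralog NR4A2 had 1.03, 2.47 and 0.955 FPKM at week 29 against 11.5, 9.51 and 8.64 FPKM at week 12 (−2.46 ± 0.31, adjusted p = 1.66e-04). The third member, NR4A3, was at 0.303, 0.110 and 0.191 FPKM at week 29, against 6.43, 3.04 and 2.16 FPKM at week 12 (−2.53 ± 0.48). All 3 NR4A genes were thus separated between weeks, beside 14.2% of all genes that were lower without overlap. NR4A3 was the one without a high value in week 29 replicate 2.

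Among the AP-1 genes, FOSB had 6.33, 51.0 and 12.2 FPKM at week 29 and 222, 183 and 164 FPKM at week 12 (11.5-fold lower, −3.52 ± 0.52, adjusted p = 8.91e-04). FOSB overlaps ERCC1, a DNA repair gene that did not pass. JUNB, a partner of FOS proteins, had 1.32, 4 and 1.27 FPKM at week 29 and 14.1, 20.1 and 3.89 FPKM at week 12 (−2.17 ± 0.54, adjusted p = 0.0356), and here week 29 replicate 2 lay above week 12 replicate 3. FOS itself stood at 100, 431 and 109 FPKM at week 29 and 536, 443 and 379 FPKM at week 12 and did not pass (−1.41 ± 0.39, adjusted p = 0.0541). FOSL1 (−1.37 ± 0.25), JUN (−0.95 ± 0.21) and ATF3 (−1.58 ± 0.31) fell, while JUND (−0.69 ± 0.24) and FOSL2 (−0.48 ± 0.19) did not pass. For FOS, week 29 replicate 2 lay within the week 12 range and the other week 29 libraries below it.

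The zinc finger factor EGR1 had 15.6, 92.6 and 19.2 FPKM at week 29 and 193, 185 and 95.8 FPKM at week 12 (4.89-fold lower, −2.29 ± 0.55, adjusted p = 0.0319). The lowest week 12 library and the highest week 29 library, replicates 3 and 2, nearly met. EGR2 (−2.56 ± 0.64) and EGR3 (−2.32 ± 0.59) fell as well. KLF6, a Krüppel-like factor, had the smallest error of the group: 50.1, 67.8 and 51.8 FPKM at week 29 against 164, 205 and 191 FPKM at week 12 (−1.72 ± 0.15, adjusted p = 1.47e-06). KLF4, a factor of keratinocyte differentiation, fell to 64.5 ± 2.51 FPKM at week 29, against 177 ± 51.6 FPKM at week 12 (SD, n = 3 libraries each). MYC fell by 1.18 ± 0.24, IER2 by 1.45 ± 0.29 and IER5 by 0.83 ± 0.19.

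The number of early genes that passed depended on the libraries: 7, 17 and 7 were lower without week 29 replicate 1, 2 or 3, and 4, 7 and 17 without week 12 replicate 1, 2 or 3, with none higher. A fit on the libraries of this comparison alone gave 5 lower. With GC content corrected, 13 were lower and none higher, and EGR1, IER2 and JUN no longer passed (adjusted p = 0.0533, 0.146 and 0.0928 in limma).

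The genes of feedback and mRNA decay moved the same way. Of 28 tested members of a list drawn up after the data were seen, 18 were lower at week 29 (64.3%, beside 1.33% of all genes) and none higher. The median was −1.39, and between 13 and 19 were lower when any one library was left out. CSRNP1, a nuclear protein induced by AXIN1, had the lowest adjusted p of all genes: 1.45, 2.08 and 1.05 FPKM at week 29 against 21.9, 24.2 and 14.8 FPKM at week 12 (10.3-fold lower, −3.36 ± 0.24, adjusted p = 8.39e-08). The 2 sets of libraries were far apart, and the spread within each was small. ZFP36, which binds AU-rich elements and speeds mRNA decay, had 12.1, 23.0 and 12.9 FPKM at week 29 and 58.6, 59.0 and 41.6 FPKM at week 12 (−1.74 ± 0.29, adjusted p = 0.00277), and its relative ZFP36L1 fell by 0.97 ± 0.15. SOCS3, an inhibitor of cytokine receptor signalling, fell to 3.40 ± 0.691 FPKM at week 29, against 21.5 ± 10.5 FPKM at week 12. PIM1, a survival kinase (−1.69 ± 0.19), SGK1, a kinase of salt and stress responses (−2.34 ± 0.50), RHOB, a short-lived GTPase (−1.59 ± 0.18) and PPP1R15A, which returns eIF2 to its unphosphorylated form (−1.39 ± 0.17), also fell. BTG2 (−0.46 ± 0.56) and GADD45B (0.81 ± 0.33) did not pass, so the list was not uniform.

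Of 23 tested EGFR ligands, receptors and MAP kinase feedback genes, 7 were lower (30.4%, beside 1.33% of all genes) and none higher. The dual-specificity phosphatase DUSP1, whose start region is printed above, had 36.4, 100 and 36.7 FPKM at week 29 and 159, 162 and 165 FPKM at week 12 (3.14-fold lower, −1.65 ± 0.30, adjusted p = 0.00554). Week 12 libraries were within a few units of each other, and week 29 replicate 2 stood between them and the other week 29 libraries. DUSP4, which acts on ERK in the nucleus, had 22.5, 11.7 and 21.3 FPKM at week 29 and 70.4, 57.3 and 74.5 FPKM at week 12 (−1.89 ± 0.27), and in this gene week 29 replicate 2 was the lowest. IER3, an early gene of survival signalling, had 30.9, 31.4 and 26.7 FPKM at week 29 and 114, 136 and 104 FPKM at week 12 (−1.97 ± 0.17, adjusted p = 1.47e-06). HBEGF, a ligand of EGFR, fell by 1.49 ± 0.27, DUSP10 by 1.20 ± 0.22, and the inhibitors SPRY2 and SPRY4 by 1.29 ± 0.27 and 0.98 ± 0.25. The receptor EGFR (0.45 ± 0.21, adjusted p = 0.187) and the ligands TGFA (0.27 ± 0.26), AREG (−0.30 ± 0.52) and EREG (−0.92 ± 0.63) did not pass. Without week 12 replicate 1 the count was 4, and in a fit on these libraries alone it was 3.

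TGF-beta and BMP feedback genes followed, with 5 of 21 lower (23.8%, beside 1.33% of all genes) and none higher. SMAD7, which blocks the TGF-beta receptor, had 7.02, 9.34 and 4.75 FPKM at week 29 and 55.3, 64.7 and 38.5 FPKM at week 12 (7.15-fold lower, −2.84 ± 0.39, adjusted p = 6.03e-04). ID2 and ID3, inhibitors of helix-loop-helix factors and BMP targets, fell by 1.90 ± 0.40 and 2.03 ± 0.43, and the ligand BMP2 by 1.98 ± 0.42. The receptors TGFBR1 (0.22 ± 0.17) and TGFBR2 (−0.29 ± 0.22) and the transducers SMAD2 (0.19 ± 0.17), SMAD3 (−0.31 ± 0.19) and SMAD4 (0.34 ± 0.19) did not pass. The count was 1 without week 12 replicate 1, 2 without week 12 replicate 2 or week 29 replicate 1 or 3, and 3 without week 29 replicate 2 or in a fit on these libraries alone.

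Of 23 tested cytokine and NF-kB target genes, 5 were lower (21.7%, beside 1.33% of all genes) and 1 higher. PTGS2, the inducible cyclooxygenase, had 8.23, 76.4 and 9.80 FPKM at week 29 and 129, 298 and 111 FPKM at week 12 (8.54-fold lower, −3.09 ± 0.66, adjusted p = 0.0172). Replicate 2 was the highest library in both weeks. IL6 had 21.6, 31.4 and 22.7 FPKM at week 29 and 152, 96.8 and 75.9 FPKM at week 12 (−2.04 ± 0.48), and IL1B had 23.5, 25.5 and 23.4 FPKM at week 29 and 112, 68.4 and 74.4 FPKM at week 12 (−1.76 ± 0.36). The NF-kB inhibitors NFKBIA and TNFAIP3 fell by 1.37 ± 0.19 and 1.39 ± 0.31. NFKB1, the p105 and p50 subunit gene, was higher at 36.0 ± 4.77 FPKM at week 29, against 24.5 ± 1.79 FPKM at week 12 (0.54 ± 0.13). CXCL8 (−1.22 ± 0.45) and CXCL1 (−0.31 ± 0.34) did not pass. The falls numbered 1 without week 12 replicate 1, 3 without week 12 replicate 2, and 2 without week 29 replicate 1 or 3. The 1 rise did not pass without week 29 replicate 1 or 3 or week 12 replicate 1 or 2. In a fit on these libraries alone 3 were lower and none higher.

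**Figure D2:**
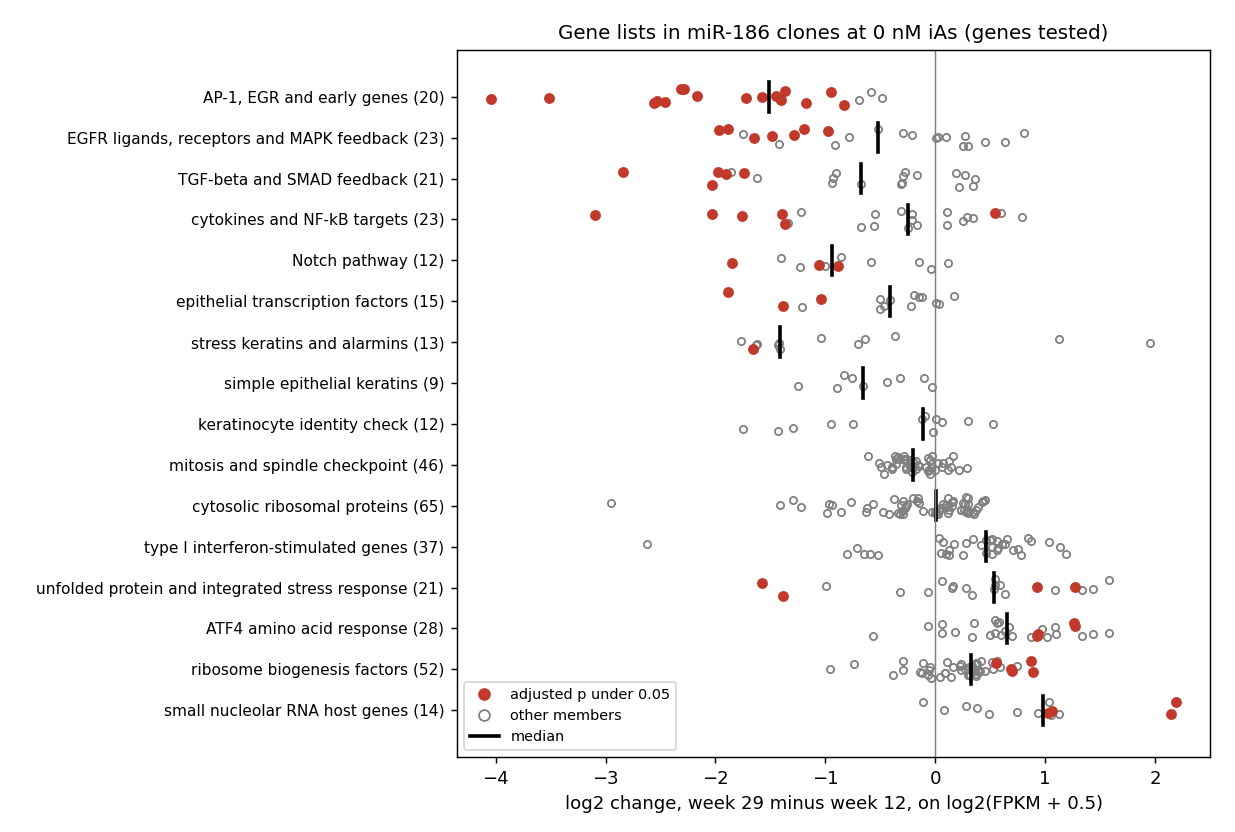
Each point is the log2 change of a gene (week 29 minus week 12 in miR-186 clones at 0 nM, on log2(FPKM + 0.5)), by gene list, with the number of genes tested in brackets, filled red where the adjusted p was under 0.05 and with a black bar at the list's median. The early genes lie lowest with a median of −1.52 and the small nucleolar RNA host genes highest at 0.98.

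In the Notch pathway 3 of 12 were lower (25%, beside 1.33% of all genes). HES1, a target repressor, stood at 28.7 ± 14.3 FPKM at week 29 against 98.9 ± 19 FPKM at week 12 (−1.85 ± 0.26). The others were the receptor NOTCH1 (−1.06 ± 0.26) and the ligand DLL1 (−0.88 ± 0.21). With GC content corrected HES1 alone passed, and 1 member was lower when any of the libraries but week 12 replicate 3 was left out, or in a fit on these libraries alone. Leaving out week 12 replicate 3 gave 6. Of 15 epithelial transcription factors, 3 were lower (20%): SOX9 at 11, 9.41 and 10.1 FPKM at week 29 against 22.4, 31.8 and 28.5 FPKM at week 12 (−1.38 ± 0.17), ELF3 (−1.04 ± 0.19) and OVOL1 (−1.89 ± 0.36). Without week 12 replicate 1 the count was 1. TP63, the master factor of stratified epithelium, stood at 68.3 ± 16.5 FPKM at week 29 and 73.7 ± 13.7 FPKM at week 12 (−0.12 ± 0.21, adjusted p = 0.739).

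Keratins were mostly on the negative side without passing. Of 13 stress keratins and alarmins KRT16 fell (0.868 ± 0.263 FPKM at week 29 against 4.10 ± 1.95 FPKM at week 12, −1.66 ± 0.42, adjusted p = 0.0382), and KRT17 stood at −1.62 ± 0.44 (adjusted p = 0.0504). The basal keratins KRT5 and KRT14 stood at −0.95 ± 0.26 and −1.75 ± 0.49 (adjusted p = 0.0562 and 0.0577). KRT14, KRT16 and KRT17 have near-identical copies that may share reads. All 9 simple epithelial keratins had a negative change with none passing, with a median of −0.65. CLDN4, a tight junction claudin, fell to 21.4 ± 3.24 FPKM at week 29, against 68.5 ± 13.5 FPKM at week 12 (−1.64 ± 0.30), and LAMA5, a laminin chain, fell by 1.26 ± 0.32 (adjusted p = 0.0363, and 0.184 with GC content corrected). KRT16 and LAMA5 each passed with week 12 replicate 3 left out but with no other library left out, and KRT16 did not pass in a fit on these libraries alone (adjusted p = 0.0781 in limma). CLDN4 did not pass without week 12 replicate 1 (adjusted p = 0.0519). Without week 29 replicate 2, the stress keratin list and the basal list each had 1 member higher and none lower. RHOV, a small GTPase, had 7.80, 10.6 and 3.81 FPKM at week 29 and 63.2, 52.1 and 26.1 FPKM at week 12 (6.08-fold lower, −2.61 ± 0.38, adjusted p = 8.91e-04).

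Other large falls included CCDC85B, a small coiled-coil protein, at 0.387, 0.353 and 0.618 FPKM at week 29 against 12.8, 10.3 and 5.58 FPKM at week 12 (−3.34 ± 0.30), and PLA2G2A, a secreted phospholipase (−2.72 ± 0.70). With GC content corrected PLA2G2A did not pass (adjusted p = 0.0615 in limma). DEPP1, a FOXO target, and the keratin-associated KRTAP3-1 fell by 2.40 ± 0.47 and 2.39 ± 0.48. The pseudogenes ATP5MC1P6 (−3.08 ± 0.40) and RPL36AP44 (−3.05 ± 0.54) lie within SERPINB5 and ANXA2, so reads of those genes may be counted in them. The cell cycle inhibitor CDKN1A fell to 26.5 ± 2.70 FPKM at week 29, against 84.8 ± 11.8 FPKM at week 12 (−1.66 ± 0.24, adjusted p = 7.57e-04), while its relative CDKN1B was 1.76-fold higher (16.0 ± 3.94 FPKM at week 29 against 8.97 ± 2.6 FPKM at week 12; adjusted p = 0.0384, and 0.0676 with GC content corrected). TIPARP, a target of the aryl hydrocarbon receptor, fell too (−1.58 ± 0.26). None of 46 mitosis genes passed, with a median of −0.20.

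Among 17 circadian clock genes, a list drawn up after the data were seen, 3 were lower and 1 higher. These were 17.6% and 5.88%, beside 1.33% and 1.57% of all genes. PER1, a repressor arm gene, had 1.26, 1.07 and 1.39 FPKM at week 29 and 5.58, 6.51 and 5.04 FPKM at week 12 (−1.84 ± 0.34, adjusted p = 0.00632). PER2 and BHLHE40, which also repress the CLOCK and BMAL1 dimer, fell by 1.02 ± 0.25 and 1.88 ± 0.31. BMAL1, the activator, had 15.4, 12.8 and 23.4 FPKM at week 29 and 7.56, 5.73 and 8.72 FPKM at week 12 (1.15 ± 0.30, adjusted p = 0.0397; 0.0676 with GC content corrected). No library of one week reached the range of the other in any of these genes. The hour of harvest is not given, and its part in these values was not tested. The rise of BMAL1 did not pass without week 12 replicate 1 or 2 or week 29 replicate 1 or 3, nor in a fit on these libraries alone.

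Small nucleolar RNA host genes carry snoRNAs in their introns, and their spliced RNAs are held down by translation-dependent decay. Of 14 tested, 4 were higher at week 29 (28.6%, beside 1.57% of all genes) and none lower, 13 of 14 had a positive change, and the median was 0.98. SNHG1 had 547, 428 and 609 FPKM at week 29 against 68.7, 98.6 and 240 FPKM at week 12 (4.42-fold higher, 2.15 ± 0.36, adjusted p = 0.00280). The weeks did not overlap, as for 16.6% of all genes that were higher without overlap, and week 12 replicate 3 was the highest of its week. SNHG12 had 151, 39.0 and 143 FPKM at week 29 and 14.7, 10.7 and 52.4 FPKM at week 12 (2.19 ± 0.55), where week 29 replicate 2 lay below week 12 replicate 3. SNHG8 (1.03 ± 0.26) and EPB41L4A-AS1 (1.06 ± 0.26, an antisense gene counted with an unstated strand setting) passed too. GAS5, at 1986 ± 439 FPKM at week 29 and 998 ± 565 FPKM at week 12, did not (1.13 ± 0.36, adjusted p = 0.0823). Leaving out week 12 replicate 3 gave 8 higher, leaving out week 29 replicate 2 gave 3, and leaving out any other library gave 1. In a fit on these libraries alone none passed.

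**Figure D3:**
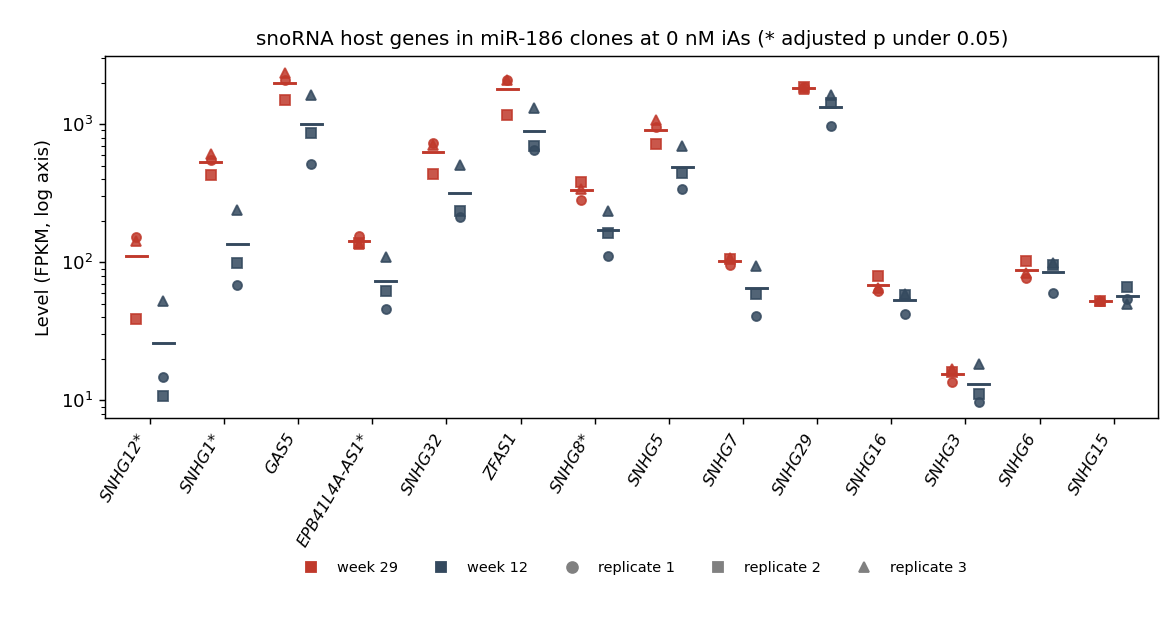
Levels of 14 small nucleolar RNA host genes (FPKM, log axis) in the 3 week 29 libraries (red) and the 3 week 12 libraries (dark) of miR-186 clones at 0 nM, with a bar at the mean and an asterisk at an adjusted p under 0.05 (4 genes). In SNHG1 the week 29 libraries lie between 428 and 609 FPKM and the week 12 libraries between 68.7 and 240 FPKM, with replicate 3 (triangle) the highest of week 12.

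Genes of the ATF4 response to amino acid shortage were a list drawn up after the data were seen. Of 28 tested, 4 were higher (14.3%, beside 1.57% of all genes) and none lower, with a median of 0.66 and 26 positive changes. DDIT4, an inhibitor of mTORC1, had 100, 139 and 85.3 FPKM at week 29 and 28.7, 46.5 and 61.6 FPKM at week 12 (2.42-fold higher, 1.27 ± 0.26, adjusted p = 0.0127), and it overlaps an antisense gene. DDIT3, the CHOP transcription factor, had 211, 149 and 220 FPKM at week 29 and 88.0, 81.2 and 139 FPKM at week 12 (0.93 ± 0.20). SLC3A2, the heavy chain of amino acid transporters (1.26 ± 0.34), and BCAT1, a branched-chain aminotransferase (0.94 ± 0.23), passed, while ASNS (1.34 ± 0.38), TRIB3 (1.58 ± 0.66) and ATF4 itself (0.33 ± 0.16) did not. In the wider list of the unfolded protein and integrated stress response, DDIT3 and DDIT4 were higher and ATF3 and PPP1R15A lower. These were 2 of 21 in each direction (9.52%, beside 1.57% higher and 1.33% lower of all genes). Without week 12 replicate 1 none of this list was higher, and without week 12 replicate 3 there were 7. Without week 29 replicate 1 or 3 or week 12 replicate 2 there was 1 each way. The ATF4 count was 15 without week 12 replicate 3, 0 without week 12 replicate 1, 1 without week 29 replicate 1 or 3, and 2 without week 12 replicate 2, and in a fit on these libraries alone it was 0.

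Of 52 ribosome biogenesis factors, another list drawn up after the data were seen, 5 were higher (9.62%, beside 1.57% of all genes) and none lower. WDR43 had 82.3, 89.9 and 85.3 FPKM at week 29 and 53.4, 53.2 and 51.0 FPKM at week 12 (0.70 ± 0.12, adjusted p = 0.00518). The weeks did not overlap, and no library stood apart within its week. NVL (0.89 ± 0.16), POLR1B, a subunit of RNA polymerase I (0.87 ± 0.18), NAT10 (0.55 ± 0.13) and HEATR1 (0.69 ± 0.17) also rose. None of 65 cytosolic ribosomal protein genes passed, with a median of 0.01. The count was 1 without week 12 replicate 1, 2 without week 29 replicate 2 and 3 without week 29 replicate 1 or 3 or week 12 replicate 2, and in a fit on these libraries alone it was 0.

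The largest rise by the rule for named genes was TMEM156, a membrane protein, at 3.17, 8.17 and 2.75 FPKM at week 29 and 0.0375, 0.698 and 0.473 FPKM at week 12 (2.46 ± 0.57, adjusted p = 0.0263). Its neighbour KLHL5, a kelch-like adaptor on the opposite strand of chromosome 4, had 47.6, 43.7 and 54.4 FPKM at week 29 and 8.38, 15.3 and 17.0 FPKM at week 12 (3.62-fold higher, 1.86 ± 0.42). The rule for large rises and falls takes only genes whose weeks do not overlap. With GC content corrected neither TMEM156 nor KLHL5 passed (adjusted p = 0.0510 and 0.0532 in limma). Further rises were SH3BGR (1.47 ± 0.37), the molybdenum cofactor sulfurase MOCOS (1.32 ± 0.33), the oxidised LDL receptor OLR1 (1.27 ± 0.34, overlapping TMEM52B) and the F-box protein FBXO4 (1.23 ± 0.26). With GC content corrected SH3BGR and OLR1 did not pass (adjusted p = 0.0645 and 0.119 in limma). MOCOS and FBXO4 still passed (adjusted p = 0.0492 and 0.0151 in limma). CNOT6LP1 and ZNRF2P2 are pseudogenes, and AC008115.3, THBS1-IT1 and TTC41P overlap CDKN1B, THBS1 and HSP90B1, so that the source of their reads is uncertain. The splicing kinase CLK1 rose to 81.3 ± 17.1 FPKM at week 29, against 41.0 ± 1.00 FPKM at week 12 (0.96 ± 0.17).

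Of 382 zinc finger genes with a number in the ZNF series, 23 were higher (6.02%, beside 1.57% of all genes) and 2 lower. The rises included ZNF425 (1.25 ± 0.31) and ZNF594 (1.22 ± 0.29). With GC content corrected 5 were higher and 1 lower, and ZNF425 still passed while ZNF594 did not (adjusted p = 0.0363 and 0.0928 in limma). The higher count was 0 without week 12 replicate 1, 2 without week 12 replicate 2, 4 without week 29 replicate 1 or 2, 5 without week 29 replicate 3 and 32 without week 12 replicate 3, and in a fit on these libraries alone it was 0. This group was put together after the data were seen. None of 37 interferon-stimulated genes passed, although 31 had a positive change (median 0.47), and MX1, which blocks viral replication, stood at 8.57 ± 4.24 FPKM at week 29 and 3.22 ± 0.914 FPKM at week 12 (adjusted p = 0.0846).

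The same week comparison was made in the other 3 pairs of groups. In vector clones at 0 nM, 12 genes were higher at week 29 (0.0843%) and 117 lower (0.822%). In miR-186 clones at 100 nM, 1011 were higher (7.11%) and 721 lower (5.07%), and in vector clones at 100 nM, 3 were higher (0.0211%) and 23 lower (0.162%). Of the 189 falls described above, 59 also fell in vector clones at 0 nM (31.2% of the 189 and 50.4% of the 117), 135 in miR-186 clones at 100 nM (71.4% and 18.7%) and 20 in vector clones at 100 nM (10.6% and 87.0%). Of the 223 rises, 1, 116 and 3 also rose there in the same order (0.448%, 52.0% and 1.35% of the 223, and 8.33%, 11.5% and 100% of the rises in those pairs). No gene passed in opposite directions. The correlation of changes over all genes, which are not independent, was 0.21 with vector clones at 0 nM, 0.73 with miR-186 clones at 100 nM and 0.64 with vector clones at 100 nM. Both miR-186 pairs come from the clonal lines of that construct, so they are not independent of each other. The changes were not corrected for GC content, and its part was not tested. GC slopes at weeks 12 and 29 were 0.119, 0.397, 0.166 and −0.388, 0.0487, −0.0913 in miR-186 clones at 100 nM. They were −0.141, −0.216, −0.0808 and 0.118, −0.0145, −0.235 in vector clones at 0 nM. In vector clones at 100 nM they were 0.191, 0.238, 0.440 and 0.164, 0.268, −0.301.

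**Figure D4:**
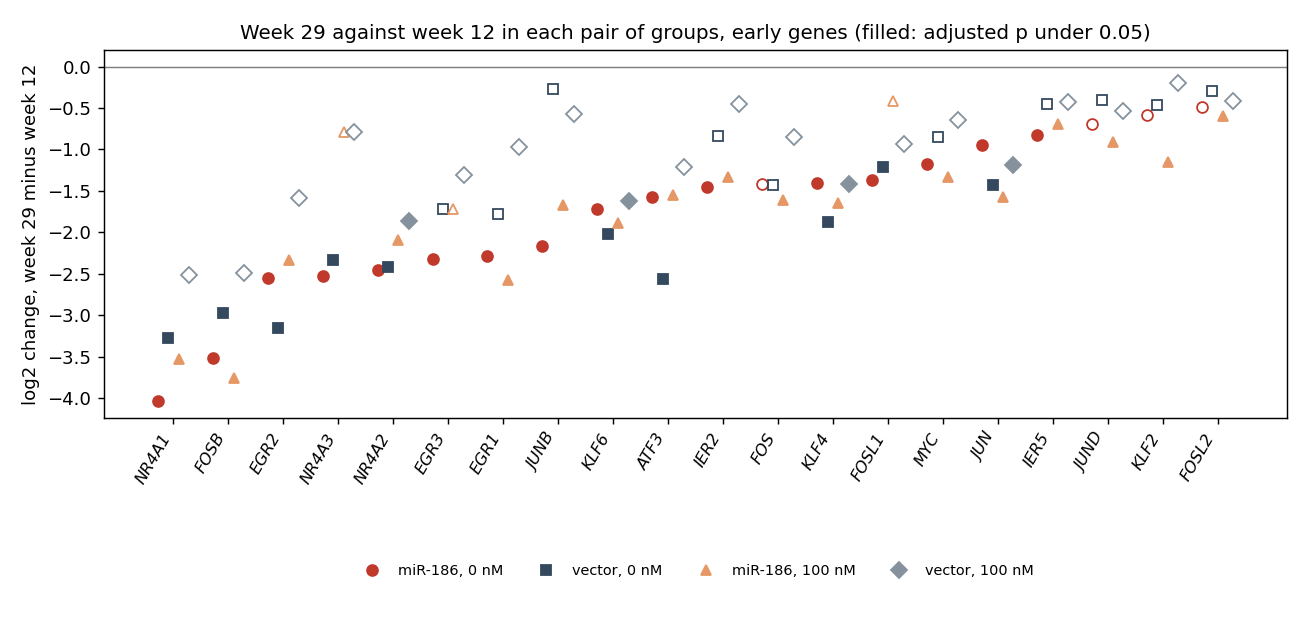
Log2 change of 20 early genes between weeks 29 and 12 in miR-186 clones at 0 nM, vector clones at 0 nM, miR-186 clones at 100 nM and vector clones at 100 nM (left to right at each gene), filled where the adjusted p was under 0.05. All points lie below 0, with medians of −1.52, −1.58, −1.60 and −0.95.

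Early genes fell in each of the 4 pairs of groups: 16 of 20 in miR-186 clones at 0 nM, 10 in vector clones at 0 nM, 17 in miR-186 clones at 100 nM and 4 in vector clones at 100 nM, with medians of −1.52, −1.58, −1.60 and −0.95. Their summed level was 590 to 1483 FPKM over the 12 week 29 libraries and 1455 to 2838 FPKM over the 12 week 12 libraries. The 2 ranges met only where miR-186 week 29 replicate 2 at 0 nM lay above vector week 12 replicate 3 at 100 nM. ATF3 fell by 2.56 ± 0.31 in vector clones at 0 nM and KLF6 by 2.02 ± 0.15. The snoRNA host genes had medians of 0.98, 0.61, 0.83 and 0.55 in the same order of groups, with 4, 1, 4 and 0 members higher. Over all genes, 1.33%, 0.822%, 5.07% and 0.162% were lower in this order, and 1.57%, 0.0843%, 7.11% and 0.0211% higher. Counts of members in different pairs thus stand beside unlike shares.

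Whether the change between weeks differed between miR-186 and vector clones at 0 nM was tested directly. No gene passed (0%) in limma, 1910 had an unadjusted p under 0.05 (13.4%), and a fit with no filter on low values gave 1 higher and 3 lower. Among the genes named by the rule, the smallest p belonged to WDR43 (difference 0.94 ± 0.18), the splicing factor TRA2A (1.00 ± 0.20), the myosin MYO1E (1.14 ± 0.23) and FILIP1L (2.04 ± 0.42), each with an adjusted p = 0.257 in limma. The changes in miR-186 and vector clones were 0.70 and −0.24 for WDR43 and 0.11 and −0.89 for TRA2A. They were 0.46 and −0.67 for MYO1E and 0.31 and −1.73 for FILIP1L. Of these genes only WDR43 passed in miR-186 clones, while TRA2A and FILIP1L passed as falls in vector clones. MYO1E, FILIP1L and PGAP3 overlap other genes. On the negative side stood PGAP3 (−1.18 ± 0.27), CYP4B1 (−1.73 ± 0.40) and PER1 (−1.96 ± 0.48), each with an adjusted p = 0.296. PER1 changed by −1.84 ± 0.34 in miR-186 clones and stood at 0.12 ± 0.34 in vector clones. PGAP3 stood at −0.67 and 0.51 in miR-186 and vector clones, and CYP4B1 at −1.16 and 0.57. In vector clones at 0 nM JUNB stood at −0.27 ± 0.54 and ID3 at −0.31 ± 0.43. Their falls in miR-186 clones were 2.17 and 2.03, and neither difference passed. Neither gene is among those named by the rule for this difference. The early genes, which include JUNB, had medians of −1.52 in miR-186 clones and −1.58 in vector clones. The TGF-beta list, which includes ID3, had −0.67 and −0.84.

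Between miR-186 clones at 0 and 100 nM no gene passed for a difference in the change between weeks (0%), with 439 at an unadjusted p under 0.05 (3.09%) and 1 higher and 3 lower with no filter on low values. The metalloprotease ADAMTS6 differed by −1.78 ± 0.37, H2BC4, a histone gene, by −1.60 ± 0.43, and TSC2, a brake on mTORC1, by 1.06 ± 0.29, each with an adjusted p of 1 in limma. TSC2 overlaps PKD1 and NTHL1, and H2BC4 has near-identical relatives. ADAMTS6 was at 2.16 ± 0.527 FPKM at week 29 and 2.43 ± 0.396 FPKM at week 12 at 0 nM. A p that misses the threshold does not show that the changes were the same.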

How the data were processed

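RNA from 24 libraries of transduced HaCaT clones was sequenced as polyadenylated, strand-marked libraries. Per the submitters' processing notes, the tools were STAR 2.6.0c and Cuffdiff 2.2.1 with the builds hg38 and GRCh38, and the deposited values are FPKM per gene from the authors. The annotation release and the strand setting are not given in the sources used here. FPKM hold no counts, so the depth behind a value is unknown and no counting interval was given.

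FPKM were put on a scale of log2(FPKM + 0.5). The 14228 genes whose mean FPKM in the 24 libraries reached 0.5 were fitted in limma 3.58.1 (R 4.3.3) with all 8 groups, trend and robust moderation, and Benjamini-Hochberg adjustment at 0.05. The code was tested on simulated data. Promoters were read, and figures drawn, in Python 3.11.15. The GC correction removed a spline with 5 degrees of freedom over gene GC content (GENCODE 29, 14208 genes). Library pairs with identical values numbered 0.

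Named genes were ZRANB2, MIR186, up to 15 falls and 15 rises with the largest changes among genes that passed without overlap at 1 FPKM or more, the 5 smallest p-values in each direction for each difference, and leading members of each list. Other genes named as members of a list that did not pass, and the printed promoters, were chosen after their values were seen. Members and lists were chosen with earlier results of these data known. Of 43 lists and 5 added later, those without calls are given in part. Alternatives were other pseudocounts, filters, scalings and fits, the GC correction, a replicate block, and libraries left out. Values of some genes counted in the lists are not reported here.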

Additional observations from a re-analysis of the deposited data

How the results depend on the processing

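None of the 81 genes followed through the alternatives changed sign (73 of them with a mean of at least 2 FPKM), though up to 54 no longer passed, without week 12 replicate 1. The median of all genes was 0.06, and −0.01 with upper quartile scaling. The 223 genes higher and 189 lower became 119 and 190 with no filter on low values, 125 and 190 with median ratio scaling, 102 and 191 with upper quartile scaling, 11 and 90 with a fit on the 2 groups alone, and 144 and 188 with the GC correction, so that falls outnumbered rises in each of these. Rises outnumbered falls with a pseudocount of 0.1 (209 and 185) or 1 (226 and 185). They also did with a mean of at least 2 FPKM (218 and 158) and with no trend and no robust moderation (228 and 204). Single calls of some lists turned: with the GC correction the YAP and TEAD list had 1 higher and 0 lower, in place of 0 and 1. Leaving out 1 library gave 11 to 547 higher and 49 to 369 lower. Leaving out week 29 replicate 2 and week 12 replicate 3 together, chosen after seeing the data, gave 684 and 430. Same-numbered libraries had correlated deviations of 0.0889, 0.421 and 0.339. Week 29 replicates 2 and 3 correlated best with their own number at week 12, and replicate 1 with week 12 replicate 3 (0.126). The labels do not say which clone a number stands for, so the numbers were not taken to pair the samples. The main p-values thus leave any pairing out. A replicate block gave 845 higher and 536 lower, with all 412 kept, and 508 and 429 together with the GC correction. For the difference between miR-186 and vector clones, no gene passed except 1 higher and 3 lower with no filter, 1 and 1 with both libraries left out, and 0 to 1 lower with 1 library left out; between 0 and 100 nM, 1 higher and 3 lower with no filter and 0 to 1 lower with 1 library left out. Along the genome, the largest absolute median change in a window of 20 Mb was 0.213 with the GC correction and 0.473 without it. The causes of these moves were not tested. The number of libraries and the unknown read depth limit the precision of genes at low FPKM.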

Other observations

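Several further lists held at most 1 gene that passed. In the DNA replication list 1 of 44 was higher (2.27%, beside 1.57% of all genes) and none lower. In the list of hypoxia and glycolysis 1 of 28 was lower (3.57%, beside 1.33% of all genes). A single call in lists of this size is near those shares. Among 22 SR proteins and splicing regulators CLK1 alone passed, as a rise (4.55%), and 16 had a positive change. None of 27 NRF2 antioxidant genes, 19 heat shock and chaperone genes, 17 genes of MHC class I presentation, 37 nuclear respiratory chain genes or 13 mitochondrial genome messages passed in limma with Benjamini-Hochberg adjustment, with medians of 0.07, −0.17, −0.36, −0.03 and 0.39. Of 138 windows of 20 Mb along the genome, 1 had an absolute median change over 0.2 after the GC correction. These medians compare the weeks, and single libraries deviated further in some windows. The window medians of week 12 replicate 1 ran from 0.129 to 0.306 on chromosome 14 and from −0.264 to −0.138 on chromosome 11. At the start of chromosome 1, replicate 2 stood at −0.279 at week 29 and −0.298 at week 12. The part of such regional shifts in the calls was not tested.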
